A study of Mus musculus with 12 samples.

Results

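The 10 genes followed here belong to the tumor stroma and were measured in LLC1-shLkb1 tumors. All of them were chosen by name from the gene symbol column as non-collagen genes of cancer-associated fibroblasts. They are *Pdgfra*, *Pdgfrb*, *Fap*, *Acta2*, *Tagln*, *Postn*, *Thbs1*, *Fn1*, *Dcn* and *Lum*, 10 of 34678 symbols in the files. Each of the 10 had 1 entry in the files and was tested, as were all 15350 genes whose FPKM averaged 0.1 or more. FPKM is the number of fragments assigned to a gene, scaled to the length of the gene and to the fragments of the library.

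Tumors grew in C57BL/6 mice of 5 to 8 weeks from Lewis lung carcinoma cells in which a short hairpin RNA lowers *Lkb1* (*Stk11*). All 4 arms carried this knockdown, so that it could not be checked against cells without the hairpin. The arms were vehicle (control IgG), palbociclib, which blocks the cell cycle kinases CDK4 and CDK6 (100 mg/kg by mouth on 3 days of each 7-day cycle), anti-PD-1 antibody (200 µg per mouse, 3 injections into the peritoneum per week) and the combination of both. Treatment began 7 days after the cells were injected, tumors were taken after 2 weeks, and each arm comprised 3 tumors, 12 in all. The study grew such tumors under the skin and in the left chest, and its methods do not say which were sequenced. The design asked how palbociclib changes *Lkb1*-deficient tumors with and without anti-PD-1.

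Fibroblasts of a tumor come from several sources and take on different states. PDGF ligands act on the receptors PDGFRA and PDGFRB and drive fibroblasts and pericytes to divide and migrate, whereas TGF-beta and tension push fibroblasts into a contractile myofibroblast state with alpha smooth muscle actin. Both states lay down matrix, in which fibronectin, thrombospondins, periostin and small leucine-rich proteoglycans surround the collagen fibrils. None of the 10 genes is particular to fibroblasts, since pericytes and vascular smooth muscle share *Pdgfrb*, *Acta2* and *Tagln*, and carcinoma cells and macrophages can make *Fn1* and *Thbs1*. In RNA from whole tumors, fewer cells of a type and less RNA per cell cannot be told apart.

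The 12 libraries held an estimated 14900000 to 20300000 fragments each. Of 12 other general fibroblast markers 11 passed the filter, led by *S100a4* at a mean of 870 FPKM, *Vim* at 347 FPKM and *Gsn* at 90.5 FPKM. *Tcf21*, a fibroblast transcription factor, was listed at 0 in all 12 tumors. Which cells made the RNA of these markers was not tested. Some tumors held RNA of adipocyte, skeletal muscle or skin markers, and its source was not tested. The summed level of 8 adipocyte markers was 1240 FPKM in combination replicate 1 and 495 FPKM in palbociclib replicate 1, and at most 4.76 FPKM in the vehicle and anti-PD-1 arms. It was 18.1 and 44.7 FPKM in palbociclib replicates 2 and 3, and 25.3 and 1.65 FPKM in combination replicates 2 and 3. The higher sums all lay in palbociclib-treated arms, so adipocyte RNA and treatment cannot be told apart. The summed level of 10 skeletal muscle markers was 179 FPKM in palbociclib replicate 3, 165 FPKM in combination replicate 2 and 60.2 FPKM in vehicle replicate 1, and 12.02 FPKM or less elsewhere. For 10 skin markers it was 399 FPKM in palbociclib replicate 2 and at most 2.37 FPKM in the others.

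By mean FPKM over the 12 tumors the genes ranked *Dcn* (27.8), *Thbs1* (27.2), *Fn1* (23.4), *Lum* (14.4), *Acta2* (7.74), *Pdgfra* (6.20), *Postn* (4.69), *Pdgfrb* (3.53), *Tagln* (3.18) and *Fap* (0.328). *Dcn* and *Thbs1*, the leading genes, each varied 10.2-fold and 11.8-fold between tumors, far more than their means differed. Differences between arms were tested with limma on log2(FPKM + 0.1) over all 15350 genes with Benjamini-Hochberg adjustment, and the log2 differences below are on that scale. The palbociclib effect is the mean of palbociclib minus vehicle and combination minus anti-PD-1, and so uses all 12 tumors. No member reached an adjusted p under 0.05 in any of the 8 contrasts. In the palbociclib effect 0 of 10 members passed, beside 0.313% of all genes, and 3 of 10 (*Pdgfrb*, *Pdgfra* and *Fn1*) had an unadjusted p under 0.05, all 3 lower with palbociclib, beside 6.44% of all genes in that direction.

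**Figure D1:**
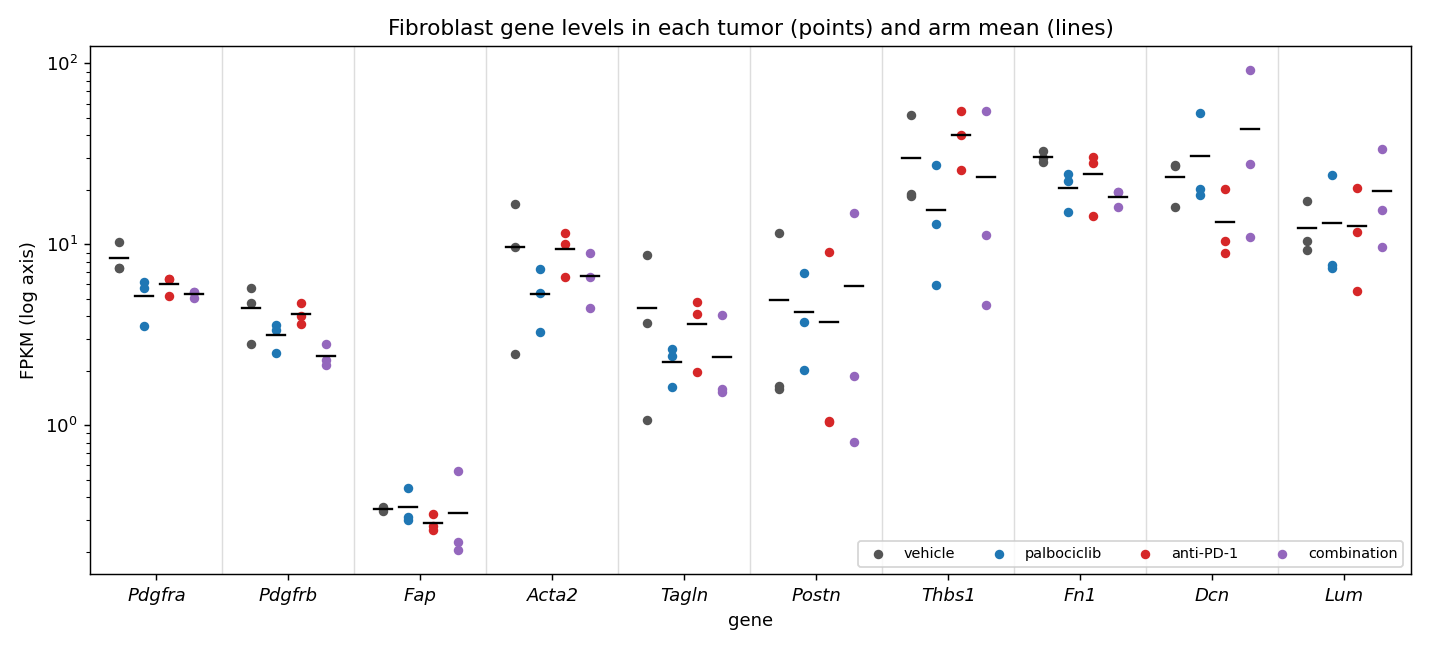
FPKM of the 10 genes (log axis) in each of the 12 tumors (points) with the mean of each arm of 3 tumors (lines). The 3 vehicle tumors lie above every tumor of the other arms for *Pdgfra*, while the points of *Postn*, *Thbs1* and *Dcn* spread widely within each arm.

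*Pdgfra* (chromosome 5, 75152292 to 75198215, plus strand; all gene positions are on GRCm38) encodes the receptor for PDGF-A and PDGF-C and marks fibroblasts of most tissues. Its FPKM was 7.35, 10.3 and 7.38 in the vehicle tumors, 5.76, 3.54 and 6.21 with palbociclib, 5.14, 6.41 and 6.45 with anti-PD-1 and 5.43, 5.01 and 5.42 with the combination. All 3 vehicle tumors were above all 9 treated tumors, and the 3 treated arms overlapped each other. Of all genes tested, 6.47% were separated downwards from vehicle in this way in the palbociclib arm, 7.09% in the anti-PD-1 arm and 11.6% in the combination arm. The arm means were 8.36 ± 1.72 FPKM with vehicle, 6.00 ± 0.743 with anti-PD-1, 5.29 ± 0.236 with the combination and 5.17 ± 1.43 with palbociclib (SD, n = 3 each). On the log2 scale *Pdgfra* was lower than vehicle by 0.70 with palbociclib (log2 difference -0.70, SE 0.21, limma adjusted p = 0.229), by 0.63 with the combination (-0.63, SE 0.21, adjusted p = 0.209) and by 0.46 with anti-PD-1 (-0.46, adjusted p = 0.592). These 3 comparisons share the vehicle tumors, and the first was -0.46 without palbociclib replicate 2 and the last -0.30 without vehicle replicate 2. The palbociclib effect on *Pdgfra* was -0.44 (SE 0.15, limma adjusted p = 0.147), and combination minus anti-PD-1, which does not use the vehicle tumors, gave -0.17 (95% interval -0.63 to 0.28). The interaction, the effect of palbociclib with anti-PD-1 minus that without, was 0.53 (95% interval -0.11 to 1.17, limma adjusted p = 0.885).

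*Pdgfrb* (chromosome 18, 61045150 to 61085061, plus strand) encodes the receptor for PDGF-B, which also keeps pericytes on blood vessels. Its FPKM was 4.74, 2.82 and 5.72 with vehicle, 3.57, 2.52 and 3.34 with palbociclib, 4.04, 3.61 and 4.75 with anti-PD-1 and 2.82, 2.28 and 2.16 with the combination. All 3 combination tumors were below all 3 anti-PD-1 tumors (as for 7.49% of all genes), whereas the highest combination tumor (replicate 1) and the lowest vehicle tumor (replicate 2) were level. The 3 palbociclib tumors also lay below all 3 anti-PD-1 tumors, by a small margin. For that pair of arms no share of all genes was counted. Arm means ran from 4.42 ± 1.47 FPKM with vehicle and 4.13 ± 0.574 with anti-PD-1 to 3.14 ± 0.552 with palbociclib and 2.42 ± 0.351 with the combination (SD, n = 3 each). Vehicle and anti-PD-1 did not differ beyond their spread (log2 difference -0.05, 95% interval -0.57 to 0.48), nor did palbociclib and the combination (-0.36, 95% interval -0.88 to 0.17). The palbociclib effect on *Pdgfrb* was -0.59 (SE 0.17), and its adjusted p of 0.114 (limma) was the lowest of the 10 genes. The log2 difference was -0.80 between combination and vehicle (SE 0.24, limma adjusted p = 0.196), -0.75 between combination and anti-PD-1 (SE 0.24, adjusted p = 0.330) and -0.44 between palbociclib and vehicle (adjusted p = 0.419). This last difference was -0.72 without vehicle replicate 2 and -0.23 without vehicle replicate 3.

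Several markers of the vessel wall were also lower with palbociclib before adjustment. Of 8 pericyte markers 5 (*Higd1b*, *Kcnj8*, *Abcc9*, *Notch3* and *Mcam*) had an unadjusted p under 0.05 in the palbociclib effect, all 5 lower (6.44% of all genes were lower at that threshold), and 0 an adjusted one, with a median log2 difference of -0.56 against 0.06 for all genes. The same counts, 5 lower of 8, were found for endothelial markers against the same share of all genes (median -0.55). These 5 were *Vwf* (log2 difference -1.02, limma adjusted p = 0.153), *Cdh5* (-0.73, adjusted p = 0.110), *Pecam1* (-0.62, adjusted p = 0.125), *Emcn* (-0.59, adjusted p = 0.195) and *Tie1* (-0.50, adjusted p = 0.188). In each list 6 markers were lower and 2 higher at any size, beside 40.2% and 59.8% of all genes. The higher ones were *Cspg4* (0.39) and *Des* (0.38) of pericytes and *Kdr* (0.25) and *Tek* (0.23) of endothelium. *Des* was highest at 5.62 FPKM in palbociclib replicate 3, 5.80 in combination replicate 2 and 2.61 in vehicle replicate 1. In these tumors the skeletal muscle markers had their highest sums, 179, 165 and 60.2 FPKM in the same order. The part of muscle RNA in the level of *Des* was not tested, and the pericyte sums below include *Des*. *Rgs5*, the most abundant pericyte marker, and the endothelial *Egfl7* were each at -0.29 (limma adjusted p = 0.327 and 0.417). The summed level of the 8 pericyte markers ranged from 11.6 to 24.1 FPKM with vehicle, 14.9 to 20.8 with anti-PD-1, 11.9 to 18.3 with palbociclib and 11.7 to 15.7 with the combination, and that of the 8 endothelial markers from 17.3 to 34.2, 22.0 to 36.7, 14.7 to 18.03 and 14.3 to 17.5 FPKM in the same order. No marker of either list was at 0 in all tumors. The part of these cells in the lower *Pdgfrb* was not tested.

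The 4 ligands of these receptors all passed the filter, and 0 of 4 had an adjusted p under 0.05. *Pdgfb*, made by endothelial cells among others, was lower (palbociclib effect -0.58, limma adjusted p = 0.227) and *Pdgfc*, a ligand of PDGFRA, higher (0.47, limma adjusted p = 0.174). *Pdgfa* (-0.10, limma adjusted p = 0.687) and *Pdgfd* (0.11, limma adjusted p = 0.842) lay nearer 0. Mean levels were 2.80 FPKM for *Pdgfa*, 2.58 for *Pdgfb*, 2.49 for *Pdgfc* and 0.208 for *Pdgfd*.

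*Fap* (chromosome 2, 62500943 to 62574075, minus strand) encodes fibroblast activation protein, a protease on the surface of activated fibroblasts and a widely used marker of them. It was scarce in these tumors, with an estimated 18.6 to 50.2 fragments per tumor. Its FPKM was 0.351, 0.335 and 0.346 with vehicle, 0.309, 0.299 and 0.450 with palbociclib, 0.322, 0.263 and 0.278 with anti-PD-1 and 0.555, 0.225 and 0.203 with the combination. Combination replicates 1 and 3 held both the highest and the lowest value, and the anti-PD-1 tumors were all below the vehicle tumors by a small margin (log2 difference -0.20, 95% interval -0.86 to 0.46). The palbociclib effect was 0.03 (95% interval -0.44 to 0.50), and this interval still allows changes of either sign at so low a level.

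*Acta2* (chromosome 19, 34241090 to 34255590, minus strand) and *Tagln* (chromosome 9, 45929619 to 45936058, minus strand) encode alpha smooth muscle actin and transgelin, an actin-binding protein, both of which are part of the contractile apparatus of myofibroblasts, pericytes and smooth muscle. *Acta2* FPKM was 16.7, 2.48 and 9.69 with vehicle, 3.25, 7.29 and 5.35 with palbociclib, 11.5, 6.57 and 10.1 with anti-PD-1 and 8.90, 6.61 and 4.47 with the combination. *Tagln* FPKM was 8.67, 1.06 and 3.67 with vehicle, 1.63, 2.63 and 2.40 with palbociclib, 4.12, 1.97 and 4.799 with anti-PD-1 and 4.05, 1.58 and 1.52 with the combination. Both were highest in vehicle replicate 1 and lowest in vehicle replicate 2, so the vehicle arm alone spanned the range of all 12 tumors, and no pair of arms was separated. In vehicle replicate 1 the skeletal muscle markers summed to 60.2 FPKM and in vehicle replicate 2 to 1.304 FPKM. They summed to 179 FPKM in palbociclib replicate 3, with *Acta2* at 5.35 and *Tagln* at 2.40 FPKM. In combination replicate 2 the sum was 165 FPKM, with *Acta2* at 6.61 and *Tagln* at 1.58 FPKM. In anti-PD-1 replicate 3 it was 1.38 FPKM, with *Acta2* at 10.1 and *Tagln* at 4.799 FPKM. The part of adjacent tissue in the levels of *Acta2* and *Tagln* was not tested.

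The arm means of *Acta2* were 9.64 ± 7.14 FPKM with vehicle, 9.37 ± 2.52 with anti-PD-1, 6.66 ± 2.22 with the combination and 5.30 ± 2.02 with palbociclib, and those of *Tagln* 4.47 ± 3.87, 3.63 ± 1.48, 2.38 ± 1.45 and 2.22 ± 0.521 in the same order (SD, n = 3 each). The palbociclib effect was -0.53 for *Acta2* (95% interval -1.42 to 0.37, limma adjusted p = 0.479) and -0.60 for *Tagln* (95% interval -1.60 to 0.39, limma adjusted p = 0.462). Both values hung on the vehicle arm: without vehicle replicate 2 they were -0.91 and -0.99, and without vehicle replicate 1 -0.24 and -0.26. Of the 12 other contractile and smooth muscle genes 0 passed the adjusted threshold in the palbociclib effect and 4 (*Actg2*, *Vcl*, *Cald1* and *Smtn*) had an unadjusted p under 0.05, all 4 lower (6.44% of all genes), with a median over the list of -0.21. The most abundant of them were *Flna* (palbociclib effect -0.11, limma adjusted p = 0.486), *Vcl* (-0.33, limma adjusted p = 0.147) and *Tpm1* (0.06, limma adjusted p = 0.795).

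Across the 12 tumors, *Acta2* and *Tagln* had profiles more like each other than like any other gene. Among 11187 genes averaging an FPKM of 1 or more, each ranked 1 for the other, with a root mean square difference of 0.31 on the log2 scale after each gene's mean was subtracted. The ratio of *Acta2* to *Tagln* FPKM stayed between 1.93 and 4.18, while *Tagln* itself varied 8.16-fold. The next most like genes were *Mest* (0.37) and *Ecscr* (0.42) for *Acta2*, and *Myl9* (0.45), a myosin light chain of smooth muscle, and *Mest* (0.46) for *Tagln*.

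Because these contractile genes had like profiles, the promoter of *Acta2* is shown, which RefSeq places upstream of a transcription start on the minus strand of GRCm38.p6. The 250 bases before the start (chr19:34255374-34255623, minus strand, 5′ to 3′) carry in capitals 1 GGAATG, the core of TEAD sites, and 2 CArG boxes, the motif bound by serum response factor, which were searched on both strands with at most 1 centre base other than A or T.
Acta2 promoter: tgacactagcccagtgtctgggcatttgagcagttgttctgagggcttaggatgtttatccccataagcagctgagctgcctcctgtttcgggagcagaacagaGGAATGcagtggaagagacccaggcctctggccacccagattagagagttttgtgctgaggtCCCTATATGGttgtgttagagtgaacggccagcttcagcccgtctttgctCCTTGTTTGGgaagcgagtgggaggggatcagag
The GGAATG lies 146 to 141 bases before the start and the CArG boxes 84 to 75 and 34 to 25 bases before it, and these matches do not overlap. The GENCODE span of *Acta2* given earlier reaches 34255590, so these matches lie upstream of the RefSeq start but inside that span. Of 32851 promoters searched alike over the 250 bases before a start, 8.59% held such a CArG box and 12.6% a GGAATG on either strand. Promoters were at hand for 3 of the 10 genes (*Acta2*, *Pdgfra* and *Postn*), and neither of these letter patterns was in the windows of *Pdgfra* and *Postn*. A match of letters is a description of the sequence and was not tied to the expression values.

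**Figure D2:**
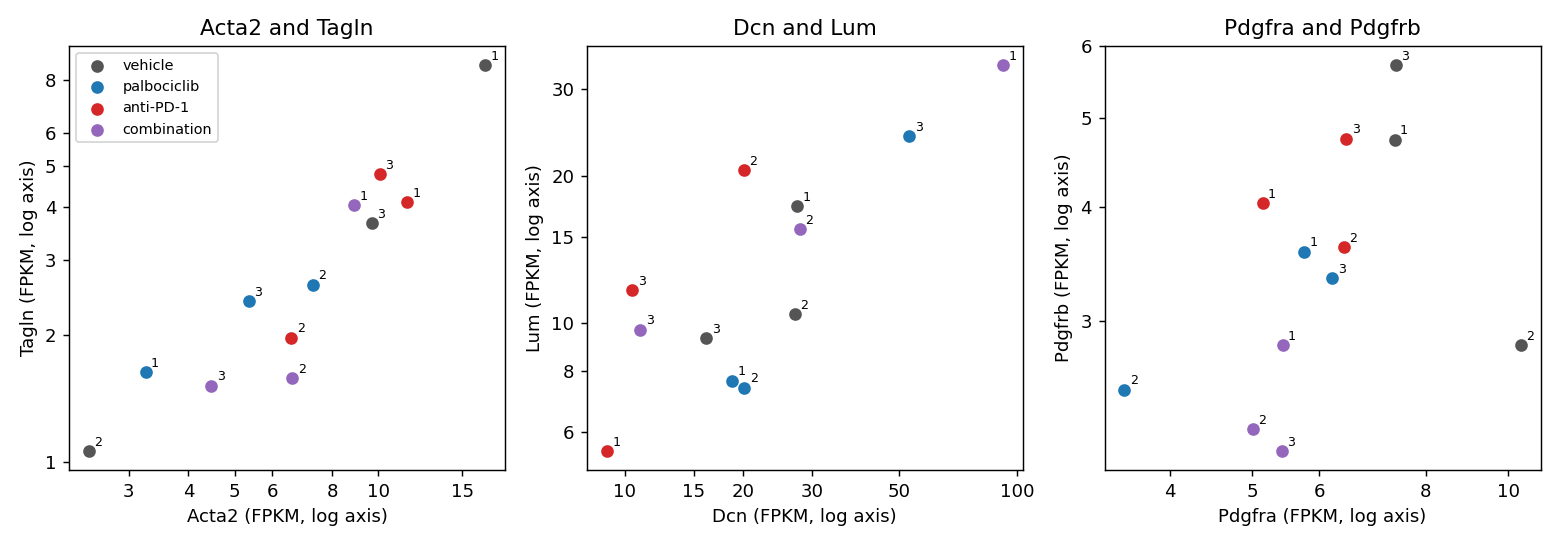
FPKM of 3 pairs of genes in each tumor (both axes log, points colored by arm and numbered by replicate). *Tagln* follows *Acta2* over the 12 tumors (ratio of *Acta2* to *Tagln* 1.93 to 4.18), *Lum* follows *Dcn* more loosely (ratio of *Dcn* to *Lum* 0.896 to 2.74), and for the receptors vehicle replicate 2 stands apart with *Pdgfra* at 10.3 and *Pdgfrb* at 2.82 FPKM.

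*Postn* (chromosome 3, 54361109 to 54391037, plus strand) encodes periostin, a secreted protein that binds integrins and helps to cross-link collagen. Its FPKM was 11.6, 1.59 and 1.65 with vehicle, 2.005, 3.72 and 6.96 with palbociclib, 9.10, 1.05 and 1.04 with anti-PD-1 and 14.9, 1.87 and 0.807 with the combination. In each of the vehicle, anti-PD-1 and combination arms replicate 1 was far above the other two, and in the palbociclib arm replicate 3 was highest, so the arms overlapped throughout. *Postn* was the most variable of the 10 genes, with an 18.5-fold range over the tumors and a within-arm SD of 1.63 on the log2 scale, larger than that of 99.0% of all genes tested. Its palbociclib effect was 0.31 (95% interval -1.46 to 2.08, limma adjusted p = 0.853), and without combination replicate 1 it was -0.27. The most similar profiles were those of *Bgn*, which encodes the proteoglycan biglycan (0.55), *Fbln2*, a fibulin of elastic and basement membrane matrix (0.58), and *Colec12* (0.68).

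*Thbs1* (chromosome 2, 118111876 to 118127133, plus strand) encodes thrombospondin-1, which activates latent TGF-beta and restrains angiogenesis. Its FPKM was 18.4, 19.1 and 52.0 with vehicle, 27.4, 12.9 and 5.92 with palbociclib, 25.7, 40.3 and 54.4 with anti-PD-1 and 4.61, 11.3 and 54.5 with the combination. The combination arm held both the lowest (replicate 1) and the highest (replicate 3) of the 12 values, and no pair of arms among the comparisons made was separated. The palbociclib effect was -1.23 (SE 0.57, limma adjusted p = 0.253), the largest log2 difference of the 10 genes, with a 95% interval from -2.49 to 0.03. Combination minus anti-PD-1 gave -1.43 (limma adjusted p = 0.500), and -2.39 without combination replicate 3 and -0.62 without combination replicate 1.

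The neutrophil gene *S100a8* was set beside *Thbs1* after its values were seen. *S100a8* FPKM was 116 in vehicle replicate 3, 47.1 and 46.0 in anti-PD-1 replicates 2 and 3, and 16.2 in combination replicate 3, and these 4 tumors were the 4 with the most *Thbs1*. It was 1.84 to 11.996 FPKM in the remaining tumors. Within these 4 tumors the order was not the same, as combination replicate 3 had the most *Thbs1* and the least *S100a8*. The genes with the profile most similar to that of *Thbs1* were *Mmp12* (0.43), an elastase of macrophages, *Gm5483* (0.49) and *Arg2* (0.56). Summed over 8 macrophage markers, the level was 323 FPKM in vehicle replicate 3 and 377 and 383 in anti-PD-1 replicates 2 and 3. It was 2022 FPKM in combination replicate 3, and 2021 FPKM in combination replicate 1, the tumor with the least *Thbs1*. The part of myeloid cells in the level of *Thbs1* was not tested.

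*Fn1* (chromosome 1, 71585520 to 71653200, minus strand) encodes fibronectin, the adhesive glycoprotein on which collagen fibrils assemble. Its FPKM was 29.9, 28.6 and 32.7 with vehicle, 24.3, 15.004 and 22.4 with palbociclib, 14.4, 28.2 and 30.5 with anti-PD-1 and 19.4, 19.5 and 16.1 with the combination. All 3 vehicle tumors were above all 6 palbociclib-treated tumors. Taken 1 arm at a time, 6.47% of all genes were separated in this direction with palbociclib and 11.6% with the combination. The joint share was not counted. Anti-PD-1 replicate 1 was the lowest of all 12, and the other anti-PD-1 tumors lay just under or within the vehicle range. Arm means were 30.4 ± 2.08 FPKM with vehicle, 24.3 ± 8.73 with anti-PD-1, 20.6 ± 4.92 with palbociclib and 18.3 ± 1.93 with the combination (SD, n = 3 each). The log2 difference was -0.73 between combination and vehicle (SE 0.26, limma adjusted p = 0.222), -0.59 between palbociclib and vehicle (SE 0.26, adjusted p = 0.354) and -0.34 between combination and anti-PD-1 (SE 0.26, adjusted p = 0.606). The last of these was -0.68 without anti-PD-1 replicate 1, -0.20 without anti-PD-1 replicate 2 and -0.14 without anti-PD-1 replicate 3, and palbociclib minus vehicle was -0.38 without palbociclib replicate 2. The palbociclib effect was -0.46 (SE 0.18, limma adjusted p = 0.197). Without anti-PD-1 replicate 1 it was -0.63 with an adjusted p of 0.0320, the only member and, among the settings run, the only one in which an adjusted p fell under 0.05 (range over all 21 settings 0.0320 to 0.601). In that setting 758 genes passed in place of 48.

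The receptors through which cells grip fibronectin and thrombospondin did not pass either. Of 11 receptor genes 9 were tested, and 2 were higher (*Cd36* and *Itga4*) and 3 lower (*Itgb3*, *Itgb5* and *Itgb1*) at an unadjusted p under 0.05 in the palbociclib effect, beside 14.1% and 6.44% of all genes, and 0 at an adjusted one. *Itgb1*, the beta subunit of the fibronectin receptor, was the most abundant (mean 147 FPKM, palbociclib effect -0.14, limma adjusted p = 0.232), followed by *Sdc4* (mean 93.9 FPKM, effect -0.22, limma adjusted p = 0.622) and *Itga5* (mean 22.5 FPKM, effect -0.15, limma adjusted p = 0.411). Of 12 other matricellular and adhesion proteins tested, 4 were higher (*Thbs3*, *Tgfbi*, *Efemp1* and *Fbln5*) and 1 lower (*Tnc*) at an unadjusted p under 0.05. The shares of all genes were 14.1% and 6.44%. The most abundant were *Spp1* (osteopontin, mean 314 FPKM, effect -0.35, limma adjusted p = 0.406), *Sparc* (mean 114 FPKM, effect -0.18, limma adjusted p = 0.621) and *Thbs2* (mean 77.5 FPKM, effect -0.14, limma adjusted p = 0.766).

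*Dcn* (chromosome 10, 97479609 to 97518143, plus strand) and *Lum* (chromosome 10, 97565128 to 97572703, plus strand) lie side by side and encode decorin and lumican, small leucine-rich proteoglycans that bind collagen and set the thickness of its fibrils. *Dcn* FPKM was 27.5, 27.1 and 16.1 with vehicle, 18.8, 20.2 and 53.2 with palbociclib, 8.9996, 20.1 and 10.5 with anti-PD-1 and 92.0, 27.9 and 10.96 with the combination. *Lum* FPKM was 17.3, 10.4 and 9.31 with vehicle, 7.64, 7.39 and 24.1 with palbociclib, 5.49, 20.5 and 11.7 with anti-PD-1 and 33.6, 15.5 and 9.69 with the combination. Combination replicate 1 was highest and palbociclib replicate 3 next for both genes, anti-PD-1 replicate 1 was lowest for both, and every pair of arms overlapped. Combination replicate 1 was also the tumor with the most adipocyte RNA and palbociclib replicate 3 that with the most muscle RNA. Palbociclib replicate 1, with adipocyte markers summing to 495 FPKM, had *Dcn* at 18.8 FPKM. Combination replicate 2, with muscle markers summing to 165 FPKM, had *Dcn* at 27.9 FPKM. The part of adjacent tissue in the levels of *Dcn* and *Lum* was not tested.

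The palbociclib effect was 0.77 for *Dcn* (95% interval -0.26 to 1.80, limma adjusted p = 0.368; 0.37 without combination replicate 1) and 0.27 for *Lum* (95% interval -0.65 to 1.19, limma adjusted p = 0.735). For *Dcn* the log2 difference between combination and anti-PD-1 was 1.29 (SE 0.66, limma adjusted p = 0.466), which became 0.50 without combination replicate 1 and 2.03 without combination replicate 3. The mean of *Dcn* was 43.6 ± 42.7 FPKM with the combination and 13.2 ± 6.04 with anti-PD-1 (SD, n = 3 each). *Lum* was the second most similar gene to *Dcn* (0.54) after *Evi2b* (0.46) and before *Htra3* (0.60), while *Dcn* ranked 7 for *Lum*. Of 7 other small leucine-rich proteoglycans tested, 1 was higher (*Prelp*) and 0 lower at an unadjusted p under 0.05, beside 14.1% and 6.44% of all genes. The most abundant were *Ogn* (mean 24.5 FPKM, palbociclib effect 0.23, limma adjusted p = 0.721), *Bgn* (mean 3.36 FPKM, 0.07, limma adjusted p = 0.958) and *Aspn* (mean 2.01 FPKM, 0.36, limma adjusted p = 0.608).

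**Figure D3:**
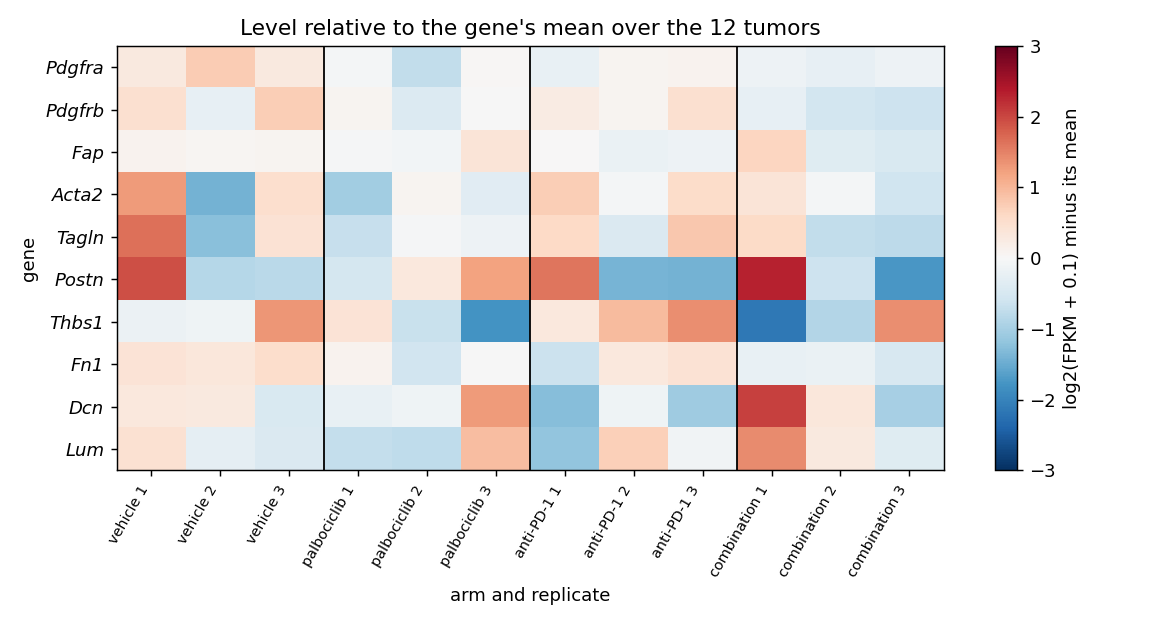
log2(FPKM + 0.1) of the 10 genes (rows) in the 12 tumors (columns, by arm and replicate) minus each gene's mean over the tumors; red is above and blue below that mean. *Dcn*, *Lum*, *Postn* and *Fap* are highest in combination replicate 1, where *Thbs1* is lowest, and *Acta2* and *Tagln* run together.

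The 10 genes did not move as a block. Combination replicate 1 had the highest value of 4 of them (*Dcn*, *Lum*, *Postn* and *Fap*) and the lowest of *Thbs1*, and combination replicate 3 the highest *Thbs1* and the lowest value of 3 (*Pdgfrb*, *Fap* and *Postn*). In vehicle replicate 1, 9 of the 10 were above their own mean over the tumors, against 1 in combination replicate 3. The spread within an arm differed as much: it was 0.27 on the log2 scale for *Pdgfra*, 0.32 for *Pdgfrb*, 0.34 for *Fap* and 0.36 for *Fn1*, and from 0.82 to 1.63 for the other 6. The median within-arm SD was 0.83 for the 10 genes and 0.24 for all genes tested. The 3 genes with an unadjusted p under 0.05 in the palbociclib effect were among these 4 least variable genes.

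The same root mean square difference puts a gene that varies little near the many others that vary little, so for *Pdgfra*, *Pdgfrb*, *Fap* and *Fn1* small values do not show a shared profile. By this measure the 3 profiles nearest to *Pdgfra* were *Ak1* (0.12), *Zrsr1* (0.17) and *Hdac11* (0.17), and those nearest to *Pdgfrb* were *S1pr1*, a sphingosine phosphate receptor of endothelial cells (0.20), *Pvrl2* (0.22) and *4933417D19Rik* (0.23). *Fn1* was nearest to *Kank3* (0.13), *RP24-363O21.3* (0.19) and *Desi2* (0.20), and *Fap* to *Mccc1* (0.15), *Rmdn1* (0.19) and *G3bp2* (0.19). *Lum* was nearest to *Gm6665* (0.47), *Cox16* (0.52) and *Ndufaf3* (0.53). Among the members themselves, *Pdgfra* and *Fn1* differed by 0.26, less than *Acta2* and *Tagln*, but both varied little, and *Postn* and *Thbs1* differed by 2.33, the most of any pair.

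**Figure D4:**
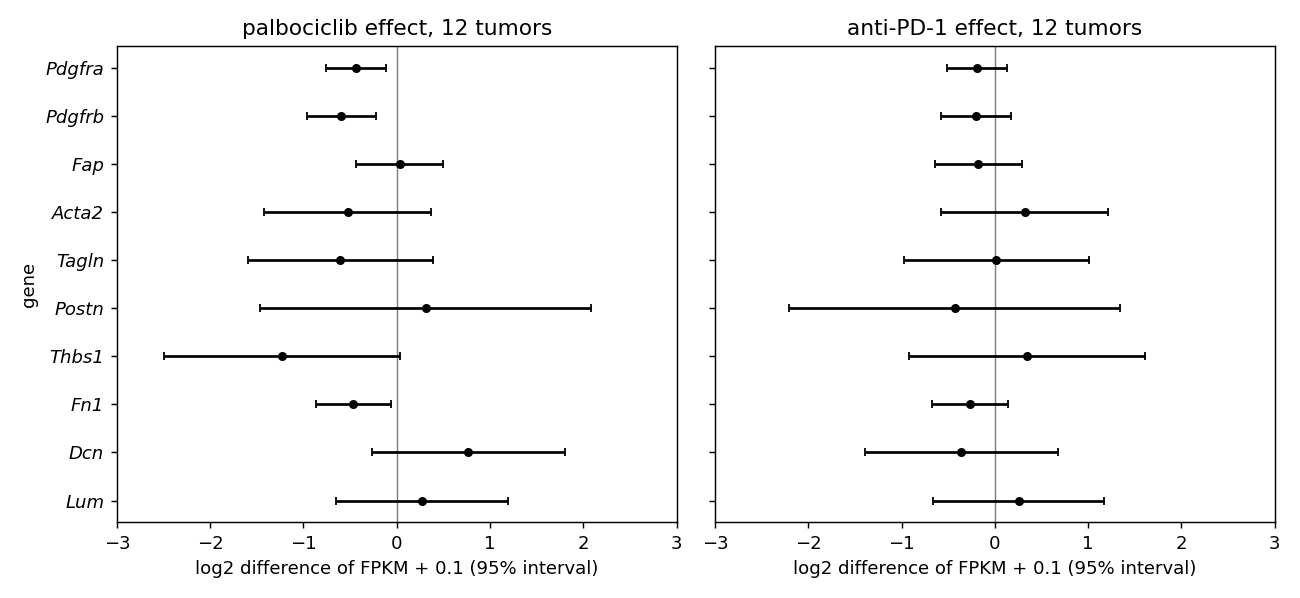
Log2 differences of FPKM + 0.1 for the palbociclib effect (left) and the anti-PD-1 effect (right) in each gene, points with 95% intervals from limma over 12 tumors. The intervals of *Pdgfra*, *Pdgfrb* and *Fn1* lie below 0 for palbociclib before adjustment for 15350 genes, and every interval for anti-PD-1 holds 0.

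Over the pairwise comparisons the counts were small. Against vehicle, palbociclib gave 0 of 10 members with an adjusted p under 0.05 (0.143% of all genes passed), 2 lower at an unadjusted p (*Pdgfra* and *Fn1*; 4.36% of all genes), and these 2 were also the ones whose arms did not overlap (6.47% of all genes were separated in that direction). The combination gave 0 at an adjusted p (0.013% of all genes), 3 lower at an unadjusted p (*Pdgfrb*, *Pdgfra* and *Fn1*; 8.31%) and 2 separated from vehicle (*Pdgfra* and *Fn1*; 11.6%). Anti-PD-1 gave 0 at an adjusted p (0% of all genes), 1 lower at an unadjusted p (*Pdgfra*; 5.11%) and 2 separated (*Pdgfra* and *Fap*; 7.09%). No member was higher than vehicle in any of these 3 comparisons at an unadjusted p under 0.05 (9.43%, 8.64% and 3.28% of all genes for palbociclib, combination and anti-PD-1).

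Between the combination and anti-PD-1, 0 members passed the adjusted threshold (0.00651% of all genes), and *Pdgfrb* was the 1 member that was lower at an unadjusted p (4.21%) and separated (7.49%). Between the combination and palbociclib, 0 members passed the adjusted (0.00651%) or the unadjusted threshold (4.52% of all genes in either direction). The anti-PD-1 effect and the interaction gave 0 members at an adjusted p (0% of all genes in each) and 0 at an unadjusted p (6.77% and 5.73% of all genes). The anti-PD-1 effects of single members ranged from -0.43 to 0.34, and the interactions from -0.39 to 1.05.

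The median log2 difference over the 10 genes was -0.45 in the palbociclib effect, with 6 lower and 4 higher (40.2% and 59.8% of all genes), against 0.06 over all genes tested. It was -0.49 between palbociclib and vehicle (0.07 over all genes), -0.40 between combination and vehicle (0.03), -0.26 between combination and anti-PD-1 (0.05), -0.16 between anti-PD-1 and vehicle (-0.03) and 0.02 between combination and palbociclib (-0.04). Vehicle replicate 1 weighed heavily on these medians: without it the median was -0.25 in the palbociclib effect, 0.03 between palbociclib and vehicle, -0.02 between combination and vehicle and 0.09 between anti-PD-1 and vehicle. The median between anti-PD-1 and vehicle was -0.38 without vehicle replicate 2, and the median between combination and anti-PD-1 was -0.50 without combination replicate 1 and -0.13 without anti-PD-1 replicate 3.

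Other fibroblast lists gave no adjusted call. Of 11 general fibroblast markers tested, 2 were higher (*Clec3b* and *Dpt*) and 0 lower at an unadjusted p under 0.05 in the palbociclib effect, beside 14.1% and 6.44% of all genes (median 0.17), and the 3 most abundant had effects of 0.00 (*S100a4*), 0.05 (*Vim*) and 0.32 (*Gsn*). Of 8 genes of inflammatory fibroblasts 0 were higher and 1 lower (*Lif*), beside the same shares of all genes (median 0.34). Effects were 0.34 for *Ccl7* (mean 76.6 FPKM), 0.70 for *C3* (mean 23.3 FPKM) and 0.34 for *Ccl11* (mean 2.31 FPKM). Macrophage markers were higher at an unadjusted p in 6 of 8 (median 1.17) and adipocyte markers in 6 of 8 (median 3.86), beside the 14.1% of all genes. Of 7 leukocyte markers tested 4 were higher (*Cd3e*, *Cd4*, *Cd8a* and *Ncr1*) and 1, *S100a8*, lower (median 0.73), beside 14.1% and 6.44% of all genes. No skeletal muscle, skin or epithelial cancer cell marker had an unadjusted p under 0.05 (medians 1.48, 1.40 and 0.36 over 10, 9 and 6 genes). At an adjusted p, 0 genes of all these lists passed.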

How the data were processed

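RNA from 12 tumors was sequenced on an Illumina instrument, and the authors deposited 1 FPKM table per tumor with 34745 entries. The submitters' processing notes name HISAT2, GRCm38 and mm10, while the counting tool and annotation are not given in the sources used here. No further scaling between tumors is stated, and FPKM is relative to the whole library, any RNA of adjacent tissue included. For 67 repeated symbols the entry with the highest mean was kept. Positions come from GENCODE M21.

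The 15350 genes averaging an FPKM of 0.1 or more entered limma 3.58.1 in R 4.3.3 on log2(FPKM + 0.1), with 1 mean per arm, a trend, no covariates and Benjamini-Hochberg adjustment at 0.05. Adding 0.1 understates changes of low genes such as *Fap*. The script was tested on simulated data. Fragment numbers were estimated from steps between low FPKM values and annotated gene lengths, and are approximate. Tables were handled in Python 3.11.15 with pandas 2.3.3 and numpy 2.4.6, and figures drawn with matplotlib 3.10.9. Promoters are RefSeq's on GRCm38.p6.

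The genes and lists were chosen with earlier results of these data known. Named are the 10 genes, the PDGF ligands, the 3 most abundant genes of each stromal list, list genes that a count of 5 or fewer refers to and the 3 genes most like each member (smallest root mean square difference of centred log2 values). Other tissues are given by summed markers, and *S100a8*, the most abundant leukocyte marker, was set beside *Thbs1* after its values were seen. The labels do not say whether the tumors of an arm came from separate mice, so p-values measure the spread between these tumors. The alternatives comprised other pseudocounts (1 and 0.01), other filters (a mean of 1, or any value above 0), TPM, quantile normalization, no trend, a replicate block, only the compared arms, each tumor left out in turn, and 4 tumors left out. The flow cytometry and other experiments of the study were not analysed here.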

Additional observations from a re-analysis of the deposited data

How the results depend on the processing

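With 3 tumors per arm, counts over all genes were unstable. In the palbociclib effect 48 genes passed, 70 with a filter at a mean FPKM of 1, 11 with no filter and 0 without a trend, and 0 to 758 when 1 tumor was left out (758 without anti-PD-1 replicate 1, 692 without vehicle replicate 1). Of the 10 fibroblast genes 0 passed in any contrast and setting, except 1 (*Fn1*, -0.63) without anti-PD-1 replicate 1, so that leaving out single tumors gave 0 to 1. *Pdgfrb*, *Pdgfra* and *Fn1* stayed below 0 in every setting run, and without single tumors they ranged from -0.74 to -0.49, -0.51 to -0.32 and -0.63 to -0.36. Of 18 same-numbered pairs of tumors of different arms, 7 had deviations correlated at r over 0.1 (range -0.21 to 0.45, median 0.03), so the numbers were not taken as pairs. The replicate block, a fit with the replicate number as a term, moved the 48 genes to 129 and gave *Pdgfrb* an adjusted p of 0.0777 (limma, range over its settings 0.0777 to 0.524), with 0 of the 10 passing.

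When 1 tumor was left out, the median over the 10 genes ranged from -0.51 to -0.25 in the palbociclib effect, from -0.38 to 0.091 between anti-PD-1 and vehicle, from -0.50 to -0.13 between combination and anti-PD-1, from -0.59 to 0.028 between palbociclib and vehicle, from -0.68 to -0.017 between combination and vehicle, from -0.32 to 0.15 between combination and palbociclib and from -0.10 to 0.49 in the interaction. Without palbociclib replicates 1 and 2 and combination replicates 1 and 2, tumors with much fat, skin or muscle RNA, where the lone tumors left are assumed to vary like the others and palbociclib replicate 3 still holds muscle RNA, these medians were -0.81 between combination and vehicle, -0.62 between combination and palbociclib and -0.61 in the interaction. Uncalled values changed sign there for *Dcn* (-0.17) and *Thbs1* (0.51) between combination and anti-PD-1, and in the palbociclib effect for *Postn* (-0.11) and *Fap* (-0.022). *Fap* was also below 0 under quantile normalization (-0.15) and over single tumors left out ranged from -0.14 to 0.13, *Dcn* from 0.37 to 1.14, *Thbs1* from -1.71 to -0.83, *Lum* from -0.0073 to 0.49 and *Postn* from -0.27 to 0.81. The cause was not tested.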
